A study of Homo sapiens with 12 samples.

Results

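TMD8 is an established human lymphoma cell line, a model of the activated B cell type of diffuse large B cell lymphoma. The 6 libraries described here came from TMD8 cells carrying a scramble short hairpin RNA (shRNA), which has no intended target, and were chosen as the columns of the merged gene table whose names begin with the TMD8 control tag. They are 6 of 12 libraries in all; the remaining 6, from cells with an shRNA against the transcription factor IRF4, were not compared here. Per the labels, the cells were pelleted at 24 h, polyadenylated RNA was made into stranded TruSeq libraries, and reads of 100 bp were sequenced from both ends. How the hairpin was delivered and whether the 6 control libraries came from separate cultures are points the labels do not give, so the spread below is between libraries and may be technical. All titles name TMD8, but the number in a cell line field of the labels grows from sample to sample. All libraries were taken as TMD8, a line derived from 1 tumour, with no untransduced cells beside it.

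Activated B cell type lymphoma is known for a transcription factor programme of late B cell activation in which IRF4 and the ETS family factor SPIB pair on shared DNA sites, and for constant activity of the NF-kB pathway fed by the B cell receptor and by the adaptor MYD88. A mature B cell makes 1 heavy and 1 light immunoglobulin chain from rearranged gene segments, and holds them at the surface with CD79A and CD79B. As B cells become plasma cells they switch on PRDM1 and XBP1 and lose PAX5, the factor that keeps B cell identity, and BCL6, the repressor of the germinal centre stage.

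Levels are given as CPM, the counts of a gene per 1000000 counts of its library, on library sizes scaled by the TMM method. A gene is called on when it reached 1 CPM in every control library, off when no library held more than 3 counts of it, and intermediate otherwise. Longer transcripts collect more counts, so ratios between genes are given only per length, as CPM per kilobase of exon rescaled so that all genes with a length sum to 1000000 (length-scaled CPM). Where a gene is called highest or lowest on the CPM scale, or ranked on it, the order is one of counts and not of transcript levels. Total counts ran from 31292705 to 36038887 per library, so 3 counts stood for 0.0838 to 0.0952 CPM. Such floors cover counting error only. Of 26318 rows in the table, 12987 (49.3%) were on, 8076 intermediate and 5255 off, and the median row stood at 1.29 CPM. Among the 15334 protein-coding rows, 10777 (70.3%) were on and the median was 15.1 CPM. Mitochondrial genes took 8.16% to 8.78% of counts. In genes rich in GC, control replicates 5 and 6 lay above the mean of the 6 libraries. Replicates 2, 3 and 4 lay below it, and replicate 1 near it. This is described with the spread between libraries at the end, and results that rest on replicates 5 and 6 are given there without them.

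The lymphoma markers were on in every library. IRF4 (chromosome 6, 391752 to 411443, plus strand, hg38) stood at 1386, 1424 and 1526 CPM in the lowest, median and highest library. Its mean of 1443 ± 55.9 (SD, n = 6) was at rank 40 of nuclear protein-coding genes on the CPM scale. SPIB (chromosome 19, 50418938 to 50431314, plus strand) stood at 2525, 2702 and 3077 CPM, with a mean of 2746 ± 214 and rank 12. CD74, the invariant chain that guides MHC class II molecules to peptides, stood at 4250.3, 4560.4 and 5099.6 CPM, and IGHM, the constant region of the IgM heavy chain, at 2503, 2647 and 3216 CPM. IRF4 was lowest in replicate 6 (1386 CPM), in which SPIB, CD74 and IGHM were highest, and all 4 genes stayed far above the limit of 1 CPM in every library. In bulk RNA, fewer cells with a transcript and less of it per cell cannot be told apart.

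Stretches before the starts of 4 genes are shown: those of IRF4 and SPIB as the defining factors of this lymphoma type, and those of PIM2 and MEF2B because they hold a site read by B cell factors whose levels follow. The sequences are the 250 bases before the start given by RefSeq for build GRCh38.p14, printed 5′ to 3′ on the strand of the gene. Capitals mark TATAAA in IRF4 and SPIB and the octamer ATGCAAAT, on either strand, in PIM2 and MEF2B. The octamer is the site of the POU family factors POU2F1 and POU2F2 and their coactivator POU2AF1.
IRF4 (chr6:391502-391751, plus strand): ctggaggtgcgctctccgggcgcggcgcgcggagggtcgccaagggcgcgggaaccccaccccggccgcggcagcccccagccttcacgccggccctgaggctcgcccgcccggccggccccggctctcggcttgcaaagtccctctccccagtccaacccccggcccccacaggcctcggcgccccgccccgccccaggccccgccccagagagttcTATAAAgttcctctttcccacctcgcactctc
SPIB (chr19:50418688-50418937, plus strand): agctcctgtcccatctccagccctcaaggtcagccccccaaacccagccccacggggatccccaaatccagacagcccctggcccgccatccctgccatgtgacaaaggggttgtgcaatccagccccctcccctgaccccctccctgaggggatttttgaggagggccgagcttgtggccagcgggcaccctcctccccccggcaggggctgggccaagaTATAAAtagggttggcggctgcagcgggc
PIM2 (chrX:48919025-48919274, minus strand): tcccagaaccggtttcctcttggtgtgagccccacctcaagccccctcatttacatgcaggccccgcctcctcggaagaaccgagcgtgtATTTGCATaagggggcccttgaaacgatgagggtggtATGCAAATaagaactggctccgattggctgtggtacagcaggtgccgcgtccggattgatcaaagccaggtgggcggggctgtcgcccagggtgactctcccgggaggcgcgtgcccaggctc
MEF2B (chr19:19170264-19170513, minus strand): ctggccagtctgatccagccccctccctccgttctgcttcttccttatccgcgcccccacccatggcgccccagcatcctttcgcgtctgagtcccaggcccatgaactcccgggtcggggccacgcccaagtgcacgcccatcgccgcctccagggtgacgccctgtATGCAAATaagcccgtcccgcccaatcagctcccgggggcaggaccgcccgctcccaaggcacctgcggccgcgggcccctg

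Searched on both strands, TATAAA began 32 bases before the start in IRF4 and 29 bases before it in SPIB. Among 27305 promoters of the same length, taking the first entry of each symbol, 11.1% held TATAAA, and among the 9072 that belonged to genes on in these libraries 5.22% did. The octamer lay 160 and 123 bases before the start of PIM2 and 82 bases before that of MEF2B, and was held by 1.66% of all promoters and 1.38% of those of genes on. Its factors were on in every library, POU2F2 at 1444, 1469 and 1582 CPM, POU2AF1 at 233, 252 and 258 CPM and POU2F1 at 85.9, 109.6 and 115 CPM. PIM2, a serine kinase that promotes survival, stood at 620.2, 641 and 670.2 CPM, and MEF2B, an activator of BCL6 in germinal centre B cells, at 301, 419 and 604 CPM. The printed matches do not overlap each other. The ETS-IRF composite motif, searched in the same way, was in none of the 4 windows and in 2.44% of all promoters. A match says only that the letters are present in the window.

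Many of the most abundant nuclear protein-coding genes served protein synthesis. Immunoglobulin genes and pseudogenes, of which the highest row reached 8853 CPM, were not ranked here. Of the 20 protein-coding genes highest on the CPM scale, 10 encoded ribosomal proteins, led by RPL13A (4615 ± 232 CPM) and RPL28 (4312 ± 451 CPM) and including RPS6, RPL3, RPL4, RPLP0, RPL18 and RPLP1 at means of 2003 to 3484 CPM. EEF1A1, an elongation factor, was highest of these at 11016 ± 468 CPM (SD, n = 6). These 20 genes took 8.07% to 8.95% of the nuclear protein-coding level. All 79 listed cytosolic ribosomal protein genes were on, with a median of 789 CPM, and took 8.29% to 9.61% of counts. Many have processed copies in the genome that can share their reads.

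The 20 genes also included B cell genes and ATF5. ATF5, a transcription factor of the amino acid and unfolded protein responses, was next after EEF1A1 among nuclear protein-coding genes at 4988 ± 818 CPM, and ranged from 3877 to 6007 CPM. The B cell genes among the 20 were CD74, SPIB and MS4A1, which encodes CD20 and stood at 1787, 2121 and 2312 CPM. OGT, the enzyme that adds N-acetylglucosamine to nuclear and cytosolic proteins, stood at 2220.2 ± 164 CPM, ACTB at 2791 ± 148 CPM, EEF2 at 2424 ± 343 CPM, TPT1 at 2341 ± 42.4 CPM and RACK1, a ribosomal scaffold, at 2150.02 ± 72.3 CPM. Other genes often used as references were on as well, with GAPDH at 1257 ± 39.2 CPM, TFRC at 1231 ± 85.7 CPM and YWHAZ at 574 ± 35.5 CPM.

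Per length, the order changed. RPL13A stood at 5451 ± 158 length-scaled CPM, EEF1A1 at 5190.5 ± 326 and FTL, the ferritin light chain, at 5069.96 ± 340.1. ATF5 (4716 ± 681) and CD74 (4009.9 ± 183) followed at ranks 5 and 6, and RPS6 (3594 ± 26.4), RPL41 (2642 ± 111) and RPL19 (2621 ± 25.4) were also among the first 10. The intervals of 1 SD around the means overlap among EEF1A1, FTL and ATF5 and between ATF5 and CD74, and those of CD74 and RPS6 do not. SPIB was at rank 17 per length (1794 ± 101) and IRF4 at rank 80 (685 ± 34.9). With the longest transcript in place of all exons as the length, CD74 moved to rank 2, SPIB to 37 and IRF4 to 111. Ranks and ratios between genes are therefore approximate. The ranges given for ratios per length are between libraries only and do not cover the choice of length.

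Of 26 B lineage transcription factor genes 25 were on, 16 of them at a mean of 100 CPM or more, and the list median was 174 CPM. PAX5 stood at 943, 1054 and 1086 CPM, TCF4, an E protein, at 735, 863 and 963 CPM, and the Ikaros family genes IKZF1 and IKZF3 at 686, 721 and 742 CPM and 389.5, 427 and 464 CPM. The means of TCF3 and ETS1 were 419.8 ± 83.2 and 343 ± 16.2 CPM, and those of FOXP1 and EBF1 193 ± 8.39 and 118 ± 12.6 CPM. The exception was BACH2, a repressor of plasma cell differentiation, which was intermediate at 0.422, 0.548 and 0.831 CPM.

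Within pairs of related factors the levels were far apart. Per length, SPIB exceeded SPI1, which encodes the related ETS factor PU.1, by 91.8 to 144 times in the individual libraries. IRF4 exceeded IRF8, its closest relative in B cells, by 11.8 to 14.7 times, and POU2F2 exceeded POU2F1 by 22.4 to 32.7 times. IRF8 itself was on at 86.1, 92.1 and 103 CPM and SPI1 at 8.47, 10.9 and 15.3 CPM. BCL6 stood at 32.6, 35.6 and 40.9 CPM and PRDM1, which encodes BLIMP1, at 223, 236 and 250.2 CPM, so PRDM1 was 5.32 to 6.54 times BCL6 per length. MYC, a driver of growth that was not among the 26, stood at 112, 118 and 165 CPM.

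**Figure D1:**
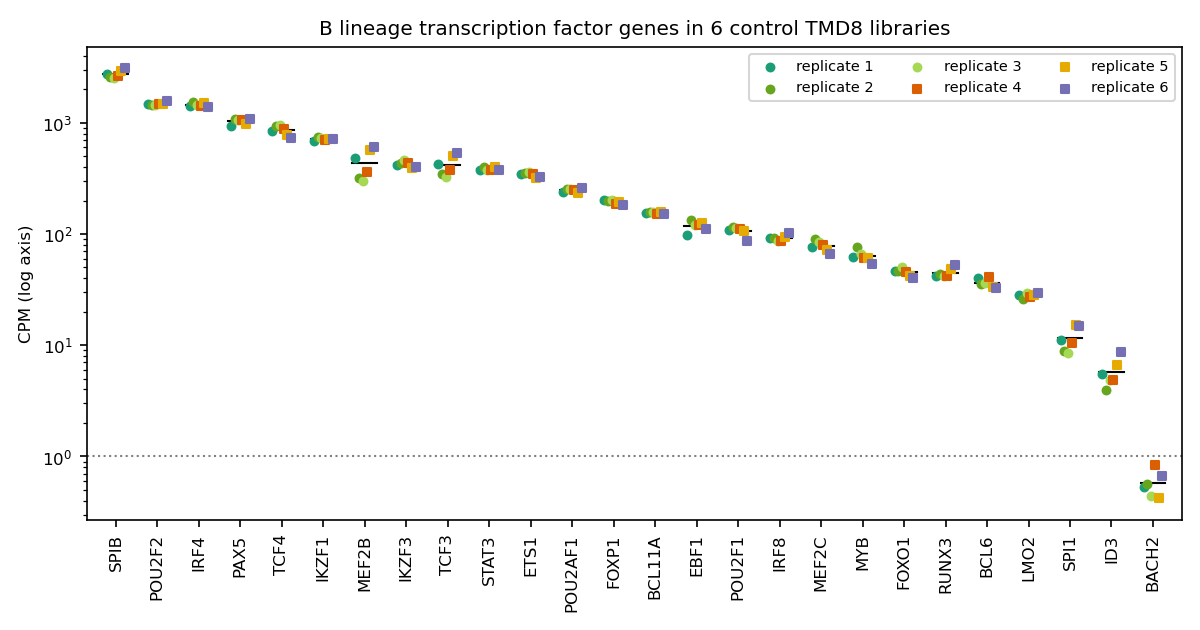
CPM (log axis) of the 26 B lineage transcription factor genes in each of the 6 control libraries (circles, library series 1; squares, series 2), with the mean as a line and the limit of 1 CPM dotted. SPIB lies highest, and BACH2 alone lies below 1 CPM in every library.

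Plasma cell genes were mostly on, with 15 of 16 on and a median of 34.7 CPM. XBP1, a factor of secretory cells, stood at 66.8, 75.4 and 83.5 CPM, its activating enzyme ERN1 at 103, 112 and 119 CPM, and the endoplasmic reticulum genes HERPUD1, SEC11C and MZB1 at means of 419 ± 37.4, 147 ± 6.76 and 86.9 ± 7.36 CPM. The surface receptor SLAMF7 averaged 128 ± 8.65 CPM. The surface markers of mature plasma cells were close to the limit of 1 CPM, SDC1 (CD138) at 1.34, 1.43 and 2.4997 CPM and CD38 at 2.41, 2.53 and 3.37 CPM, and the receptor TNFRSF17 (BCMA) was at 14.8, 16.9 and 19.4 CPM. CD28 was off, with 0 counts in all 6 libraries.

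The cell-of-origin assay for diffuse large B cell lymphoma reads 8 genes of the activated B cell type, 7 of the germinal centre type and 5 reference genes. All 8 activated B cell genes were on, with a median of 269 CPM: besides IRF4 and PIM2 they were LIMD1 (281 ± 12.98 CPM), CREB3L2 (273 ± 18.99 CPM), RAB29 (264 ± 5.22 CPM), TNFRSF13B, the receptor TACI (215 ± 17.8 CPM), CCDC50 (123 ± 9.69 CPM) and CYB5R2 (42.1 ± 1.64 CPM). Of the 7 germinal centre genes 4 were on, and none reached 15 CPM in any library. ITPKB stood at 11.2, 12.8 and 14.1 CPM, S1PR2 at 8.32, 10.1 and 12.7 CPM, SERPINA9 at 8.91, 9.33 and 12.2 CPM and MYBL1 at 2.71, 2.94 and 3.45 CPM.

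ASB13 (0.1396, 0.265 and 0.477 CPM) and MME (0.1396, 0.197 and 0.349 CPM), which encodes CD10, were intermediate, and MAML3 was off with 0 counts in all 6 libraries. Per length, the median of the activated B cell genes ran from 123 to 136 length-scaled CPM between libraries, that of the germinal centre genes from 1.03 to 1.35 and that of the reference genes from 25.98 to 31.7. The ranges of these medians do not overlap. Means of single genes ran from 13.7 to 685 in the activated B cell list and from 17.8 to 94.3 in the reference list. These lists therefore overlap gene by gene, while the germinal centre genes ran from 0 to 10.97. The reference genes on the CPM scale were UBXN4 (172), TRIM56 (154), R3HDM1 (82.1), WDR55 (48.8) and ISY1 (26.8). A wider list of 19 germinal centre genes was less uniform, with 15 on and a median of 27.9 CPM. Besides MEF2B its highest members on the CPM scale were P2RY8 (199 ± 16.4 CPM) and GNA13 (111 ± 11.8 CPM), which confine germinal centre B cells, the methyltransferase gene EZH2 (93.3 ± 7.48 CPM), ELL3 (79.7 ± 6.42 CPM) and SMIM14 (79.5 ± 7.18 CPM). LMO2, a transcriptional adaptor, was on at 26.1, 28.1 and 29.7 CPM and RGS13 at 19.1, 23.2 and 25.8 CPM, whereas STAP1 (0.5898, 0.957 and 1.396 CPM) and GCSAM (0.391, 0.457 and 0.6795 CPM) were intermediate.

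**Figure D2:**
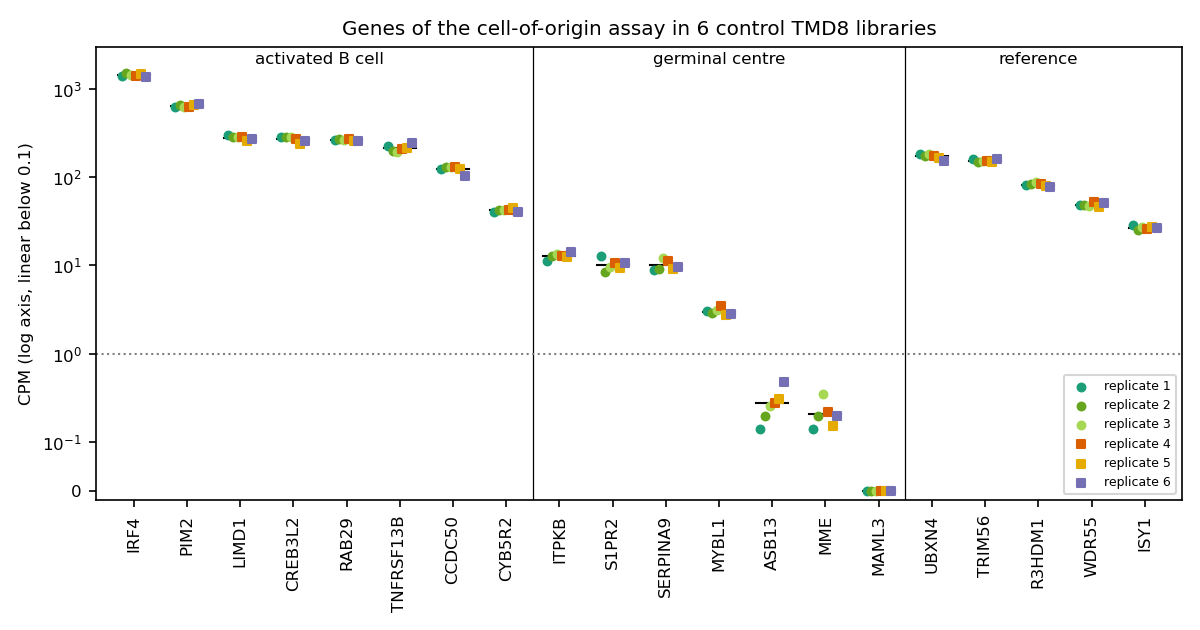
CPM (log axis, linear below 0.1) of the 20 genes of the cell-of-origin assay in each control library, with means as lines and 1 CPM dotted. The 8 activated B cell genes lie between a mean of 42.1 and 1443 CPM, and the 7 germinal centre genes between 0 and 12.8 CPM.

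Most immunoglobulin constant region counts lay on the IgM heavy chain and the kappa light chain. IGHM took 74.9% to 77.1% of heavy chain constant region counts in the 6 libraries, and IGKC 78.1% to 80.3% of light chain constant region counts. IGKC (chromosome 2, 88857161 to 88857683, minus strand) stood at 1284, 1359 and 1472 CPM. Per length, IGHM was 0.506 to 0.6203 times IGKC. IGHD, which mature naive B cells co-express with IGHM, was intermediate at 0.888, 1.15 and 1.24 CPM, and IGHE was off with 6 counts in all 6 libraries.

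Among the variable segments with a row, a single segment held most counts at the heavy and at the kappa locus. IGHV3-48 (chromosome 14, 106537810 to 106538344, minus strand) held 76.2% to 81.97% of the counts of 12 heavy variable rows, at 17.5, 22.3 and 29.4 CPM. IGKV2-30 (chromosome 2, 89244781 to 89245596, minus strand) held 92.7% to 94.9% of the counts of 35 kappa variable rows, at 447, 475 and 555 CPM. Together with its distal near-copy IGKV2D-30 the share was 96.7% to 97.6%. The heavy variable rows held 5751 counts in all, against 733048 on heavy constant regions, so the heavy share describes these 12 rows and not the whole of the heavy chain transcripts. The next heavy segment among functional genes, IGHV5-51, stood at 0.793, 0.994 and 1.52 CPM, followed by IGHV4-34 at 0, 0.0159 and 1.87 CPM. Of the IGHV4-34 level nearly all came from replicate 2, and without it the mean fell from 0.347 to 0.0425 CPM. IGKV4-1, next among the kappa segments, stood at 3.26, 3.49 and 4.403 CPM. Lambda variable segments held 322 counts in all 6 libraries together, led by IGLV1-47 at 0.363, 0.555 and 0.8005 CPM, with IGLV1-40 and IGLV1-44 at means of 0.385 and 0.337 CPM.

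Transcripts of other constant regions were present too. The IGHG genes together held 21.5% to 23.6% of heavy constant counts, with IGHG4 at 306, 316 and 397 CPM, IGHG2 at 187, 200.4 and 216 CPM, IGHG1 at 169, 178 and 204 CPM and IGHG3 at 68.1, 79.5 and 91.7 CPM. The 4 genes are nearly alike in sequence, so reads can be exchanged among them and the split within IGHG is uncertain. IGLC2 stood at 264, 287 and 347 CPM, IGLC3 at 45.1, 46.5 and 60.2 CPM and IGLL5, which overlaps the first lambda constant gene, at 121, 143 and 187 CPM, and the lambda constant genes likewise share sequence. JCHAIN, which joins IgM into pentamers, was on at 31.2, 37.9 and 41.9 CPM. Genes of V(D)J recombination were at or near 0, with DNTT at 0 counts in all libraries and RAG1 intermediate at 0, 0.0736 and 0.227 CPM.

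**Figure D3:**
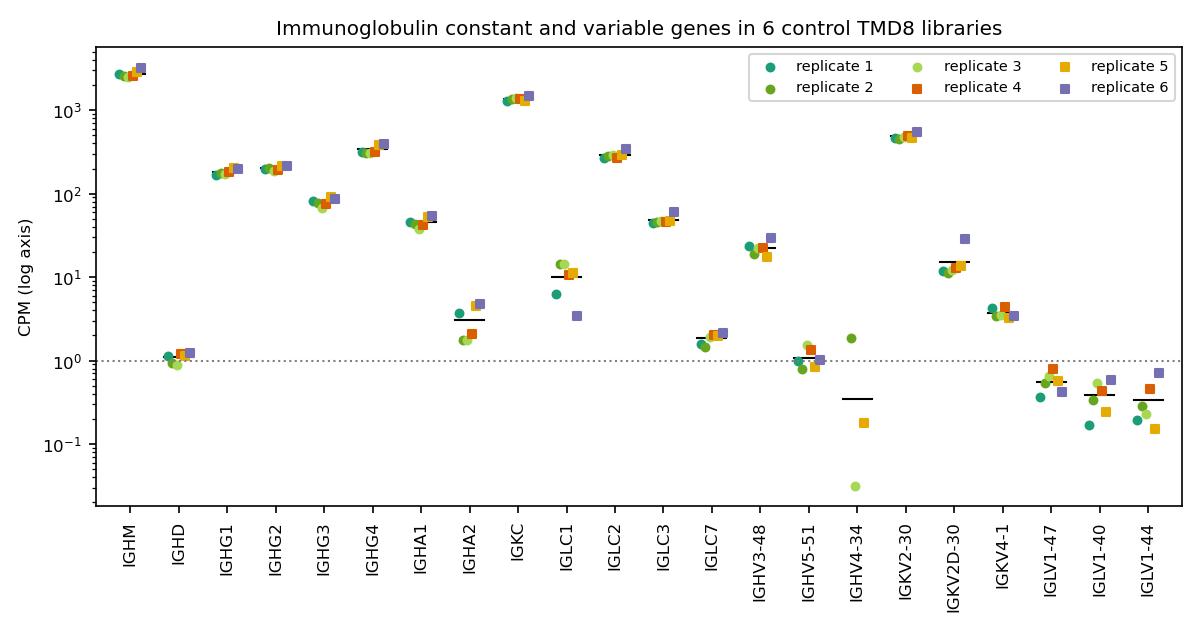
CPM (log axis) of 13 immunoglobulin constant genes and the 3 highest functional variable segments of each locus in the 6 control libraries, with means as lines and 1 CPM dotted; libraries at 0 are not drawn. IGHM, IGKC and IGKV2-30 stand highest on this scale, and every lambda variable segment lies below 1 CPM.

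The B cell receptor and its proximal signalling chain were nearly complete, with 32 of 34 genes on, 23 of them at 100 CPM or more, and a median of 205 CPM. CD79A and CD79B, the signalling chains of the receptor, stood at 605, 634 and 702 CPM and 532, 542 and 612 CPM. Among the kinases, LYN, which starts the signal, stood at 772, 812 and 885 CPM, SYK at 566, 600.2 and 618 CPM and BTK at 125, 134 and 139.7 CPM. The adaptor BLNK averaged 377 ± 20.5 CPM and the Ras activator RASGRP3 590.4 ± 36.5 CPM. PTPRC, the phosphatase CD45, averaged 713 ± 71.9 CPM and the adaptor GRB2 662 ± 14.3 CPM. PLCG2, the phospholipase of B cells, stood at 554, 573 and 588 CPM and exceeded its relative PLCG1 by 11.9 to 13.5 times per length. Downstream, BCL10 and MALT1, which carry the signal to NF-kB, stood at 46.4, 50.6 and 52.03 CPM and 82.97, 98.03 and 106 CPM, and PRKCB at 199, 209 and 226 CPM. Inhibitory members were on as well, including INPP5D (SHIP1) at 308 ± 9.99, PTPN6 (SHP1) at 224 ± 11.7 and CD22 at 292 ± 4.71 CPM. The intermediate members were CR2, the complement coreceptor, at 0.7298, 0.928 and 1.42 CPM, and the T cell kinase LCK at 0.0281, 0.101 and 0.154 CPM.

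Most genes of Toll-like receptor signalling were on. Of 23 genes of the pathway with a row, 20 were on, with a median of 24.7 CPM. The adaptor MYD88 stood at 74.02, 78.8 and 83.5 CPM, the receptors TLR10 at 80.7, 94.9 and 102 CPM, TLR7, a sensor of RNA, at 51.97, 56.8 and 61.5 CPM and TLR9, a sensor of DNA, at 36.3, 51.7 and 76.1 CPM, and CD180, a TLR-like receptor of B cells, at 93.1, 100.4 and 108 CPM. UNC93B1 and CNPY3, which carry these receptors to their compartments, averaged 79.7 ± 24.8 and 76.3 ± 4.07 CPM. TLR6, TLR4, TLR2, TLR1 and TLR8 were on at means of 29.8, 12.7, 11.6, 7.67 and 2.76 CPM. The kinases IRAK1 and IRAK4 averaged 86.3 ± 11.8 and 42.95 ± 2.36 CPM, while IRAK2 was intermediate at 0.0566, 0.168 and 0.308 CPM. TLR3 had 0 counts in all 6 libraries. TLR9 was high in replicates 6, 1 and 5 (76.1, 65.2 and 62.7 CPM) and low in replicates 2, 3 and 4 (40.7, 39.2 and 36.3 CPM).

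All 22 NF-kB genes were on, with a median of 72.4 CPM. NFKB1 stood at 159, 165 and 175 CPM, NFKB2 at 129.9, 154 and 181 CPM, REL at 115, 144 and 154 CPM, RELB at 70.9, 86.6 and 126 CPM and RELA at 59.6, 63.7 and 72.6 CPM. Among inhibitors of the pathway, TNFAIP3 (A20) stood at 212, 217 and 219.9 CPM, TNIP1 at 172, 186 and 201 CPM and the classical inhibitor NFKBIA at 57.1, 60.7 and 69.2 CPM. NFKBIZ, an atypical member of the NFKBIA family and not a classical inhibitor, stood at 231, 247 and 265 CPM. The inhibitors NFKBIE, CYLD and NFKBIB had means of 70.1, 67.2 and 37.6 CPM, and the atypical family members NFKBID and BCL3 of 72.5 and 68.5 CPM. Per length, NFKBIZ was 1.39 to 1.75 times NFKBIA. TRAF3, a brake on the alternative pathway, was highest of the list on the CPM scale at 237, 252 and 279 CPM, and TRAF2 lowest on that scale at 13.1, 15.5 and 17.97 CPM.

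Of 22 JAK-STAT genes with a row 17 were on. STAT6 stood at 459, 469.7 and 494 CPM and STAT3 at 376, 378 and 399.8 CPM. STAT5A was intermediate at 0.881, 1.33 and 1.46 CPM, and STAT3 exceeded it by 169 to 279.6 times per length. The other STAT5 gene, STAT5B, was on at a mean of 47.6 CPM, with libraries between 44.02 and 51.4 CPM. JAK1 averaged 209 ± 10.3 CPM, TYK2 183 ± 24.7 CPM, and the receptor chain IL10RA 231 ± 5.401 CPM. The cytokines themselves were low, IL10 at 4.94, 6.72 and 8.38 CPM and IL6 at 0.821, 1.03 and 1.57 CPM, and IFNB1 was off with 4 counts in all libraries. PIM1, a STAT3 target, stood at 186, 204 and 213 CPM.

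Of 46 B cell surface receptor genes with a row 38 were on, with a median of 59.2 CPM. Besides MS4A1, the tetraspanin CD37 (1253, 1324 and 1457 CPM), the Fc receptor-like gene FCRL5 (921, 1116 and 1199 CPM) and the adhesion receptor CD44 (628, 659.6 and 676 CPM) were highest on the CPM scale, followed by FCRL3 at 399 ± 27.8 CPM and CD24 at 296 ± 11.1 CPM. Homing receptors were on, with CXCR4 at 203, 229 and 246 CPM, CCR7 at 100.4, 103 and 109 CPM and CXCR5 at 63.1, 77.6 and 85.1 CPM. The costimulatory receptor CD40 stood at 79.1, 82.4 and 86.1 CPM and the costimulatory ligands CD80 and CD86 at 41.3, 44.9 and 50.5 CPM and 57.7, 63.3 and 69.3 CPM.

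Several surface receptors lay near or below 1 CPM. CD27, a memory marker, was intermediate at 0.0616, 0.1501 and 0.241 CPM, while its ligand CD70 was on at 60.96, 74.4 and 90.5 CPM. FCER2 (CD23) stood at 0.447, 0.548 and 0.955 CPM, the lymphocyte antigen gene CD52 at 0.335, 0.422 and 0.595 CPM, CR1 at 0.0849, 0.137 and 0.349 CPM and IL2RA, which encodes the activation marker CD25, at 0.754, 0.915 and 1.05 CPM, all intermediate. IL7R was off with 3 counts in all libraries.

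The genes of antigen presentation were all on, 22 of 22, with a median of 211 CPM. Besides CD74, HLA-DRA stood at 1087, 1153 and 1191 CPM, the class II transactivator CIITA at 639.6, 658 and 702 CPM and B2M, the class I light chain, at 907, 979 and 1031 CPM. HLA-B averaged 693 ± 105 CPM. HLA-DQB1 was lowest on the CPM scale at 6.14, 7.86 and 9.32 CPM and HLA-DOB stood at 7.74, 8.86 and 10.2 CPM. HLA genes share reads with each other and differ from the reference in sequence, so levels of single HLA genes are uncertain.

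Of 16 BCL2 family genes 15 were on, including members of opposite function. BCL2, which blocks apoptosis, stood at 486, 526 and 559 CPM and MCL1 at 497, 519.6 and 539 CPM, and BCL2A1, an NF-kB target, at 134, 142 and 146 CPM. BCL2L11, which encodes the pro-apoptotic BIM, stood at 878, 923 and 954 CPM and was 3.02 to 3.299 times BCL2 per length. BMF averaged 202 ± 11.2 CPM and BAX 138 ± 21.4 CPM, while BIK was at 1.301, 1.58 and 1.79 CPM and BOK had 0 counts in all libraries.

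The libraries carried a proliferation programme, with 18 of 21 cell cycle genes on. MKI67 stood at 451, 513 and 575 CPM, TOP2A at 239.7, 277 and 313 CPM and RB1 at 215, 269 and 301 CPM. Among the D cyclins, CCND2 (512, 552 and 573 CPM) exceeded CCND3 (15.6, 16.4 and 19.5 CPM) by 21.96 to 29.8 times per length, and CCND1 was intermediate at 0.462, 0.629 and 0.786 CPM. CDKN1A, an inhibitor of cyclin-dependent kinases, was on at 118, 129 and 174 CPM, and the ubiquitin ligase gene MDM2 at 97.2, 115 and 159.5 CPM.

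The inhibitor genes CDKN2A and CDKN2B had 0 counts in all 6 libraries, and so did the protein-coding genes next to them. On chromosome 9 (hg38) the rows from MTAP (21802636 to 21937651) through CDKN2A (21967753 to 21995301) and CDKN2B (22002903 to 22009305) to DMRTA1 (22446824 to 22455740) included 4 named protein-coding genes, and all 4 were at 0. MTAP is an enzyme of methionine salvage that most cell types transcribe. A count of 0 among 203962536 counts in the 6 libraries allows up to 0.0147 CPM. Within the same stretch CDKN2B-AS1 had 31.4 counts and the pseudogene UBA52P6 133 counts over all libraries. On the side toward lower coordinates KLHL9 (21329665 to 21335404) was on at 48.8, 52.6 and 58.6 CPM.

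Markers of other cell types were mostly at or near 0, with a few genes on in every library. Of 9 T cell markers with a row 2 were on, CD4 at 4.28, 5.33 and 7.02 CPM and LAT at 1.84, 2.59 and 2.91 CPM, while CD8A, CD247 and TRAC were intermediate at means of 0.557, 0.126 and 0.0972 CPM. Without replicate 2 the means of CD247 and TRAC fell to 0.0719 and 0.0600 CPM. The T cell markers ZAP70 (8 counts), TRBC2 (2 counts), CD3E and CD28 (0 counts) were off, and 5 further markers had no row in the table used here. The NK cell list had 0 of 6 on, with a summed level of 0.111 to 0.447 CPM: KLRK1 was intermediate at a mean of 0.217 CPM, PRF1 (3 counts) and KLRF1 (1 count) were off, and KLRD1, GNLY and NCR1 were at 0. In the myeloid list 1 of 9 was on, MS4A7 at 3.71, 4.58 and 5.28 CPM, with ITGAM, CD14 and CSF1R intermediate, LYZ, CSF3R and FCN1 off with 4, 3 and 2 counts, and MPO and CD33 at 0. The erythroid and platelet list had 0 of 4 on, with a summed level of 0.286 to 0.586 CPM, KLF1 and ITGA2B intermediate, and the globin genes HBA2 and HBA1 off. Stromal and endothelial genes had 2 of 7 on, COL1A1 at 3.57, 3.92 and 4.91 CPM and PECAM1 at 2.72, 3.698 and 4.41 CPM, and the other 5 intermediate.

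The epithelial list had 1 of 7 on, and that was well above the limit. CDH1, which encodes E-cadherin, stood at 58.7, 65.3 and 75.8 CPM, while EPCAM was off (8 counts), KRT18 and CLDN4 were at 0 and the list without CDH1 summed to 0.954 to 1.24 CPM. Genes best known from plasmacytoid dendritic cells were on in 5 of 7, including TCL1A, which B cells also use, at 776, 819 and 941 CPM, GZMB, the protease granzyme B, at 174, 196 and 219 CPM, LILRA4 at 3.798, 4.44 and 5.22 CPM, CLEC4C at 2.89, 3.32 and 3.903 CPM and IL3RA, a receptor for interleukin 3, at 11.9, 13.2 and 14.02 CPM, with LAMP5 off and SCT at 0. Among 14 transcription factors of other lineages with a row 5 were on. TP63, a factor of stratified epithelia, stood at 130.2, 149 and 163 CPM, CEBPB at 10.99, 15.6 and 24.04 CPM and TCF7 at 10.9, 12.1 and 12.7 CPM, followed by LEF1 and CEBPA at means of 8.58 and 4.95 CPM. EOMES was intermediate at a mean of 0.794 CPM, SOX2 (5 counts) was off, and GATA3 and TAL1 had 0 counts. Whether any of these transcripts came from other cells was not tested.

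**Figure D4:**
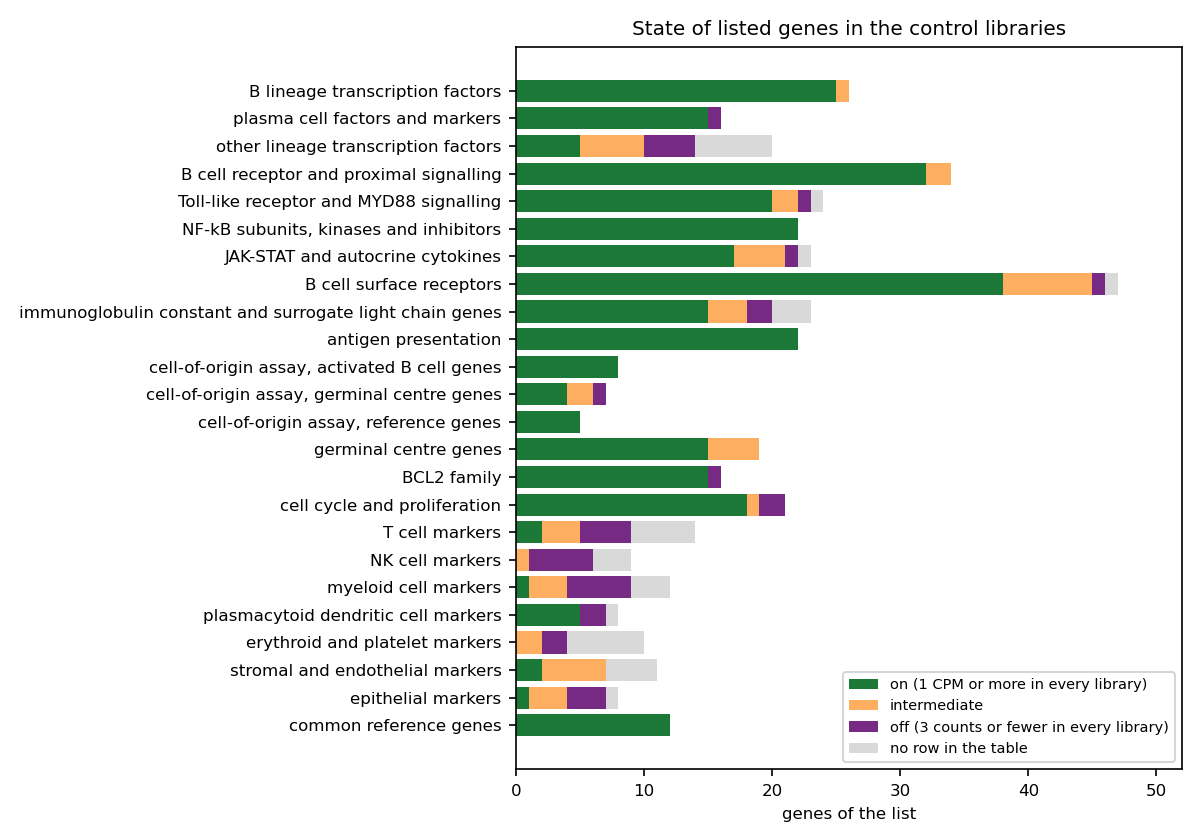
Number of genes in each of 24 lists that were on, intermediate, off or without a row in the table, in the 6 control libraries. The NF-kB and antigen presentation lists are on throughout, and the NK cell and the erythroid and platelet lists have no gene on.

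The 6 libraries were close to each other for most genes. Among genes that were on, the coefficient of variation (SD over mean) of the CPM had a median of 8.57% and lay between 3.04% and 27.4% for the middle 90% of genes. The highest library was under 1.5 times the lowest in 10519 of 12987 genes (81.0%) and at least 2 times in 615 (4.74%). Of listed genes at 10 CPM or more, the steadiest were TNFAIP3 (1.22%), RPLP0 (1.44%), IKBKB (1.59%), CD22 (1.61%) and MAP3K14 (1.78%).

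Of the 10 genes that varied most, 9 were higher in replicates 5 and 6. MIF, a cytokine, stood at 71.5, 33.2, 27.6, 39.4, 163 and 176 CPM in replicates 1 to 6. JUNB, an AP-1 factor, stood at 11.8, 5.55, 5.01, 7.42, 21.3 and 20.8 CPM in the same order. SCAND1, MZT2B, ALKBH7, ZNF628, LRFN1, H2AC19 and PDF, the other single genes among the 10 with the largest spread at 10 CPM or more, had coefficients of 57.9% to 68.2%, and in each the highest libraries were replicates 5 and 6. Without these libraries the means of the 9 genes from MIF to PDF were lower by 1.52 to 1.99 times, that of MIF from 85.2 to 42.9 CPM. BORCS8-MEF2B, a readthrough gene that overlaps MEF2B and can exchange reads with it, went the other way at 2.997, 21.1, 27.8, 10.9, 4.29 and 3.41 CPM, while MEF2B was highest in replicate 6 (604 CPM) and lowest in replicate 3 (301 CPM).

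GC content moved with this spread. The 615 genes with a range of at least 2 times had a median transcript GC of 62.3%, against 47.8% for all genes on. Among these 615 the highest library was replicate 6 in 334 and replicate 5 in 180. The lowest library was replicate 3 in 323 of them and replicate 2 in 147. How often each library was highest or lowest among all genes on is not given here. In the quintile of genes richest in GC the median deviation from the mean of the 6 libraries was 0.184 in replicate 5 and 0.246 in replicate 6 on the log2 scale, against 0.00931, -0.137, -0.1897 and -0.111 in replicates 1 to 4. In the quintile poorest in GC it was -0.0668 and -0.181 in replicates 5 and 6 and between 0.0244 and 0.104 in the others. Without replicates 5 and 6 the median coefficient of variation was 5.75%, and with the GC trend of each library removed it was 6.68%. Without those 2 libraries 13115 genes were on and 5900 off. Whether GC content sets the spread of any single gene was not tested.

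**Figure D5:**
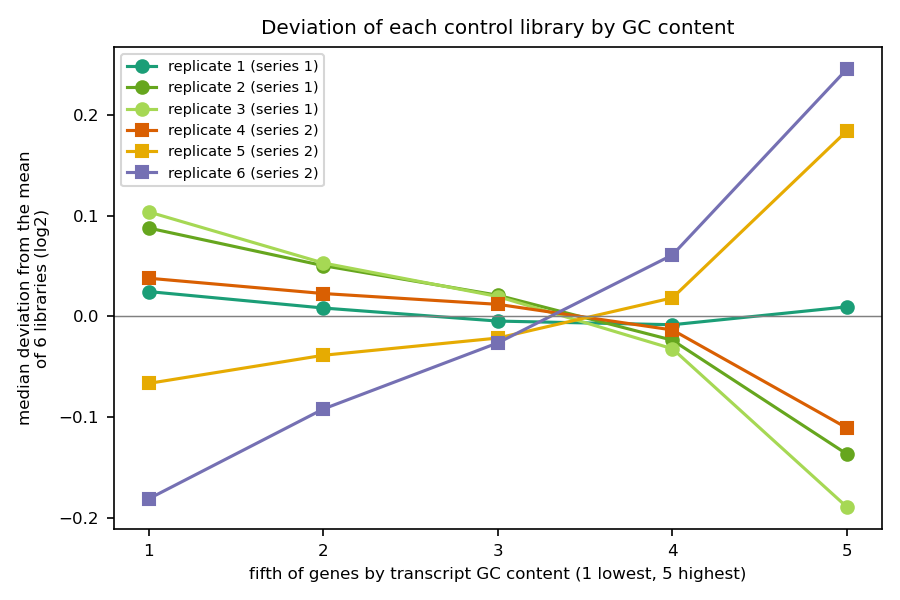
Median log2 deviation of each control library from the mean of all 6, for genes on in every library, in quintiles by transcript GC content. Replicates 5 and 6 rise from negative values in the lowest quintile to 0.184 and 0.246 in the highest, while replicates 2, 3 and 4 fall.

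Library names divide the 6 controls into 2 series of 3, replicates 1 to 3 and 4 to 6, by a number whose meaning the labels do not give. By edgeR's quasi-likelihood test with Benjamini-Hochberg adjustment, 0 of 16299 genes (0%) differed between series 2 and series 1 at an adjusted p under 0.05. The smallest adjusted p was 0.415, 1906 genes had an unadjusted p under 0.05, and DESeq2 also called 0 genes (1774 unadjusted). IRF4 had a log2 difference, series 2 minus series 1, of -0.018 (SE 0.052, edgeR adjusted p = 0.889), SPIB of 0.15 (SE 0.066, edgeR adjusted p = 0.415) and CD74 of 0.079 (SE 0.07, edgeR adjusted p = 0.601). Without replicate 4, 2306 genes passed, 1523 higher and 783 lower in series 2, which then consists of replicates 5 and 6 alone. Leaving out any of the other 5 libraries left 0 calls, and the count with replicate 4 in place does not show that the series are alike.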

How the data were processed

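RNA was measured in 12 TMD8 libraries, of which the 6 scramble shRNA controls were used. The authors deposited estimated counts per gene, with library totals that differ and no sign of scaling in the values. Tools named by the submitters' processing notes were STAR and HTSeq, on build hg38; versions, annotation release, strand setting and the step that gave fractional counts are not given in the sources used here. Of the control values 66.9% were whole at a tolerance of 1e-06. Near-identical copies, overlapping genes and antisense partners may share reads.

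Counts were scaled by TMM in edgeR 4.0.16 (R 4.3.3) to CPM. For the test between library series, counts were rounded, filtered by filterByExpr (minimum count 10), and fitted by quasi-likelihood without covariates; DESeq2 1.42.0 was an alternative. Lengths (union of exons) and GC content (longest transcript) came from GENCODE release 29, matched by name and chromosome for 24773 of 26318 genes; start and end are the deposited ones, with the end reduced by 1. Of 394 genes in 24 lists, 359 had a row. The members, lists and naming rule were chosen with earlier results of these data known. The rule took the 20 most abundant nuclear genes on the CPM scale and 10 per length, the highest and the off members of each list, the 3 highest variable segments of each immunoglobulin locus, the 10 most and 5 least variable genes, and anchor genes. Other list members named for their role, and the neighbours of CDKN2A, were chosen after their values were seen. Some genes that the rule names are not reported here. On simulated counts for this series comparison over 16092 genes, 42.9% of log2 changes of 0.5 and 76.3% of changes of 1 were recovered, with 4.13% of calls false. The simulated counts were drawn gene by gene, without the GC trend that the control libraries show. These rates therefore hold for such counts and may not hold for the comparison of the real libraries.

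Alternatives were other scalings, limits for on and off, filters, a replicate block, removal of the GC trend, and leaving out each library. The longest transcript as the length was a further alternative for per-length levels. Leaving out replicates 5 and 6 together was chosen after seeing the data.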

Additional observations from a re-analysis of the deposited data

Results flagged for a closer look

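In 23 of 260 values tested, 1 of the 6 control libraries lay far from the other 5, as judged by its gap to the nearest library over the whole range; chance gives about 1 such group in 20. Genes that were off were not tested, because a gap among so few counts says nothing. The library that stood apart was replicate 6 in 14 of the 23, replicate 2 in 4, replicates 1 and 3 in 2 each, replicate 5 in 1 and replicate 4 in 0.

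Replicate 6 was the highest library for several immunoglobulin values. It held IGKV2D-30 at 28.9 CPM against 11.1 to 13.7 CPM in the others, IGLC3 at 60.2 CPM against 45.1 to 46.9 CPM, and IGLC2 at 346.7 CPM against 264 to 294 CPM. Immunoglobulin genes took 0.662% of its counts against 0.558% to 0.595%. The share of IGKV2-30 in kappa variable counts was lowest there at 92.7% against 94.3% to 94.9%, and so was the share of IGLV1-47 in lambda variable counts at 20.8% against 37.1% to 41.3%. The same library was highest for CD79B (612 CPM against 532 to 551 CPM), POU2F2 (1582 CPM against 1444 to 1484 CPM), CCND3 (19.5 CPM against 15.6 to 16.6 CPM) and SDC1 (2.4997 CPM against 1.34 to 1.72 CPM). It was lowest for REL (115 CPM against 142 to 154 CPM), POU2F1 (85.9 CPM against 106 to 115 CPM), CCDC50 (104 CPM against 123 to 129.5 CPM) and EZH2 (79.6 CPM against 93.1 to 100.2 CPM). Replicate 6 also had the steepest rise with GC content.

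Replicate 2 was highest for CD38 (3.37 CPM against 2.41 to 2.597 CPM), IGHV4-34 (1.87 CPM against 0 to 0.181 CPM), CD247 (0.396 CPM against 0.0279 to 0.0952 CPM) and TRAC (0.283 CPM against 0.0281 to 0.0924 CPM). CD247 and TRAC encode parts of the T cell receptor complex. Other parts of it were off, with CD3E at 0 in every library and TRBC2 at no more than 0.0317 CPM in any. In replicate 2, 1 CPM stood for 35.3 counts, so the CD247 and TRAC levels rest on few counts. Whether they came from other cells was not tested. Replicate 1 was highest for MDM2 (159.5 CPM against 97.2 to 117 CPM) and CD14 (0.531 CPM against 0.0603 to 0.227 CPM). Replicate 3 was highest for MME (0.349 CPM against 0.1396 to 0.216 CPM) and lowest for STAT5A (0.881 CPM against 1.301 to 1.46 CPM). Replicate 5 was highest for CIITA (702 CPM against 639.6 to 662 CPM).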

How the results depend on the processing

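With series 2 set against series 1, the count of genes at an edgeR adjusted p under 0.05 ran from 0 to 2306 when each control library was left out in turn, with all 2306 calls coming without replicate 4 and 0 without any other single library. The count was 0 with DESeq2 size factors, library size alone, the DESeq2 Wald test, no filter on low counts, the GC trend removed, and replicates 5 and 6 left out, the last chosen after seeing the data. With the replicate block, which uses the library number within its series, it was also 0 (648 genes at an unadjusted p under 0.05), and with the block and the GC trend removed 0 (799 genes). Same-numbered libraries of the series did not deviate together (correlations of -0.30, -0.042 and -0.18 for numbers 1, 2 and 3). The shared numbers were not taken to pair samples. Those correlations rest on 3 libraries per series with the GC trend left in, so they cannot show that pairing is absent. The number of genes off was 8890 at a limit of 10 counts, a looser limit by construction, and 5402 to 5553 with each library left out. The number of genes on stayed within 1.5 times of 12987 under every alternative run, from 10386 at 5 CPM to 14137 at 0.5 CPM, and was 13018 to 13051 with each library left out. The median coefficient of variation was 5.79% within series 1, 8.2997% within series 2, and 7.17% to 8.96% with each library left out. At 5 CPM no T cell, myeloid or stromal marker was on, and 3 plasmacytoid dendritic markers were. With the longest transcript in place of all exons as the length, 12 of 13 per-length levels moved. Where a gene had few counts, levels below 0.0952 CPM rest on 3 counts or fewer in a library.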

Other observations

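Among long non-coding RNAs, 990 of 5800 rows were on, with a median over all of them of 0.104 CPM, and 1114 of 4445 pseudogene rows were on. SNHG29, a host of small nucleolar RNAs, was highest of the named long non-coding genes on the CPM scale at 853.97, 916 and 935 CPM in the lowest, median and highest library. NEAT1, the scaffold of nuclear paraspeckles, stood at 468, 498 and 521 CPM, and MALAT1, a nuclear speckle RNA, at 342, 371 and 419.5 CPM. EBLN3P stood at 339.96, 401 and 442 CPM and OIP5-AS1 at 254, 313 and 321 CPM. EBLN3P and OIP5-AS1 were lowest in replicate 6, and NEAT1 was lowest in replicate 1. Polyadenylated RNA was selected, so levels of transcripts without a usual poly(A) tail, which include part of NEAT1 and MALAT1, are of the captured RNA only.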
